A study of Mus musculus with 75 samples.

Results

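Dnmt3a1_delta_N mice carry, by the name of the genotype, DNMT3A1 without its N-terminus; DNMT3A1 is the long isoform of the DNA methyltransferase DNMT3A. The comparison holds 6 of the 26 RNA libraries of the series, which has 75 samples in all: the 3 libraries of Dnmt3a1_delta_N cerebral cortex and the 3 wild type libraries numbered n1 to n3. Mice were of the C57BL/6 strain and 21 days old (postnatal day 21), and the label gives neither the number of mutant alleles per mouse nor the bounds of the deletion. Each library was made from mRNA of a whole cortex homogenate with a stranded kit. Same-numbered libraries were treated as pairs. The labels do not say that the n series was collected with this mutant or that each library is a separate animal, so p-values measure the spread between these libraries. As references, 3 Dnmt3a1-/- cortex libraries were set against the 3 wild type cortex libraries with plain numbers, 3 Dnmt3a1-/- hippocampus libraries against 3 wild type ones, and 2 Dnmt3a2-/- cortex libraries against the 2 wild type ones of the r series, all at postnatal day 21.

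DNMT3A adds methyl groups to cytosines that were not methylated before. Neurons of the postnatal cortex build up DNMT3A-dependent methylation at CA as well as CG dinucleotides. DNMT3A1 carries an N-terminal region that the short isoform, DNMT3A2, lacks; this region is mostly disordered and is known to bind nucleosomes that carry ubiquitin on histone H2A, the mark of Polycomb complex PRC1, which lies over CpG-rich promoters of developmental genes. DNMT3A2 starts at a promoter inside the gene.

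Because CpG density of a promoter is the property by which DNMT3A1 and Polycomb target sites are usually described, the 250 bases before the start are shown for the outermost starts listed for Dnmt3a and for the 2 higher and 2 lower named genes with the smallest p that have 1 listed start. Sequences are those of RefSeq for build GRCm38.p6, 5′ to 3′ on the strand of the gene, with CpG sites in capitals. The first Dnmt3a start (chr12:3806730-3806979, plus strand) holds 38 CpG in 250 bases and the last (chr12:3891494-3891743, plus strand) holds 15. Gdf10 (chr14:33923337-33923586, plus strand) and Chrd (chr16:20732877-20733126, plus strand), which rose, hold 35 and 28. Myl4 (chr11:104550413-104550662, plus strand) and Nr4a2 (chr2:57124004-57124253, minus strand), which fell, hold 23 and 44. CpG-rich starts were thus found on both sides among these picked genes. Median CpG counts were 15.5 for matched genes called higher, 16 for those called lower and 15 for all matched genes tested. Medians of the CpG count over that expected from the C and G content were 0.61, 0.62 and 0.69 in the same order. The promoter table held only 60.6% of the genes called higher, 69.8% of those called lower and 73.6% of all tested. These medians therefore leave out many genes and decide nothing over whole groups.
Dnmt3a, first start: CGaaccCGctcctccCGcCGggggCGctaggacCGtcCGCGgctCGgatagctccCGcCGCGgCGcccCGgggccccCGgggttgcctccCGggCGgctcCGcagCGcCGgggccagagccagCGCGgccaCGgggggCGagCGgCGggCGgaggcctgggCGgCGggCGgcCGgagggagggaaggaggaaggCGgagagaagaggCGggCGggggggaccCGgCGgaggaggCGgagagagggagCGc
Dnmt3a, last start: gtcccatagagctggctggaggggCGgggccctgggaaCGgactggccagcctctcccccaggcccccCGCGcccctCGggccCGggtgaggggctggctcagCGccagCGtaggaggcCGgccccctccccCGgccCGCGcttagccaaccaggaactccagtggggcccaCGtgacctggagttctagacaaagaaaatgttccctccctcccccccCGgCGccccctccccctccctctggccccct
Gdf10: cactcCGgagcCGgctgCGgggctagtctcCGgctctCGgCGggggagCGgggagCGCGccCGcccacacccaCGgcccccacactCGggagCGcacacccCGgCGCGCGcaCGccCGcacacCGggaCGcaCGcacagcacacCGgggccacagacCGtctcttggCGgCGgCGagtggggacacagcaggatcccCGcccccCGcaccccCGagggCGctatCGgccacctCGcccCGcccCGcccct
Chrd: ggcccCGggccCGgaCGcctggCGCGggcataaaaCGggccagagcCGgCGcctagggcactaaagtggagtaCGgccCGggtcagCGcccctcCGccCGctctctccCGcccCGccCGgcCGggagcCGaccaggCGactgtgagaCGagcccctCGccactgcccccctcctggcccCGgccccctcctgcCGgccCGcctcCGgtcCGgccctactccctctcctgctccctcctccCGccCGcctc
Myl4: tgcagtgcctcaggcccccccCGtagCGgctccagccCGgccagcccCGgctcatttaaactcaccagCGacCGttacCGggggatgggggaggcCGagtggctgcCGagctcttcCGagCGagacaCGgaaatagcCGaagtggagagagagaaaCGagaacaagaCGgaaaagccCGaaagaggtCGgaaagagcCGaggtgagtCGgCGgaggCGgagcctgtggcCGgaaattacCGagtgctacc
Nr4a2: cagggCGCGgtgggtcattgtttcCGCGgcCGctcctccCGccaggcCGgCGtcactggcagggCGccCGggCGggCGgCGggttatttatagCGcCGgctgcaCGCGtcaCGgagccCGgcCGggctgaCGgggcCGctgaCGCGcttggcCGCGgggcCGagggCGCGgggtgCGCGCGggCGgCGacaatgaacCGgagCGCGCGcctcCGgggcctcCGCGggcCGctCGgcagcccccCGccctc

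Gene counts ranged from 25.7 M to 35.6 M per library (M, 1e+06 counts). Y-linked reads marked pairs 1 and 2 as male and pair 3 as female in both groups. Library 3 of the mutant stood apart: 13.6% of its reads did not map uniquely, against 11.5% to 12.1% in the other 5 libraries, and its 20 most counted genes took 21.4% of the counts, against 17.3% to 19%. Excitatory neuron markers summed to between 7691 and 8575 CPM (counts per 1e+06 counts, library sizes scaled by TMM) in the 6 libraries and astrocyte markers to between 23419 and 27468 CPM, as the cortex label states. The whole gene of Dnmt3a was counted, including exons shared by both isoforms, so its level does not check the deletion. It stood at 145, 161 and 163 CPM in wild type and 135, 138 and 142 CPM in the mutant. All mutant libraries lay below the wild type ones, a log2 difference of -0.18 ± 0.06 (SE, 3 libraries a group) that did not pass (edgeR quasi-likelihood test with replicate block, adjusted p = 0.20). In Dnmt3a1-/- cortex the gene fell by 1.02 on the same scale.

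In the mutant cortex 33 genes rose (0.208% of 15881 tested) and 86 fell (0.542%) at an adjusted p under 0.05, together 0.749%. Falls were found among potassium channels, GABA and glutamate receptors, smooth muscle and endothelial genes. Rises were found in 2 genes of bone morphogenetic protein (BMP) signalling, 2 collagen chains and a microglial glycoprotein. Most changes were small: 9 higher and 17 lower genes changed at least 1.5-fold, and the median log2 fold change was 0.44 for higher and -0.43 for lower genes. These calls need the pairing and pair 3. With the replicate block left out 0 genes passed by edgeR (lowest adjusted p = 0.12, with 1267 genes at an unadjusted p under 0.05, against 2211 with the block), while DESeq2 without the block called 12 higher and 31 lower, of which 6 and 20 were among the 33 and 86. That fit gave no adjusted p for 9545 of the 15881 genes. Without pair 3 the block called 2 higher and 6 lower genes, of which 0 higher and 4 lower were among the 33 and 86. All 33 higher and 86 lower genes kept their sign in these fits. Signs could hardly change there, because each of these genes had the same sign in all 3 pairs, so this adds no support.

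All 33 higher and 86 lower genes differed in the same direction in all 3 pairs, as did 36.1% of all genes tested. Groups did not overlap for 25 of the 33 higher and 63 of the 86 lower genes, against 13.1% of all genes. Falls were deepest in pair 3 for 60 of the 86 lower genes, with medians of -0.35, -0.37 and -0.53 on the log2 scale in pairs 1, 2 and 3. Medians of the higher genes were 0.39, 0.45 and 0.48. The part of mutant library 3 in the depth of these falls was not tested. Pair 3 was also the only female pair, so sex and that library cannot be told apart here. A fit without pair 3 holds males only.

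**Figure D1:**
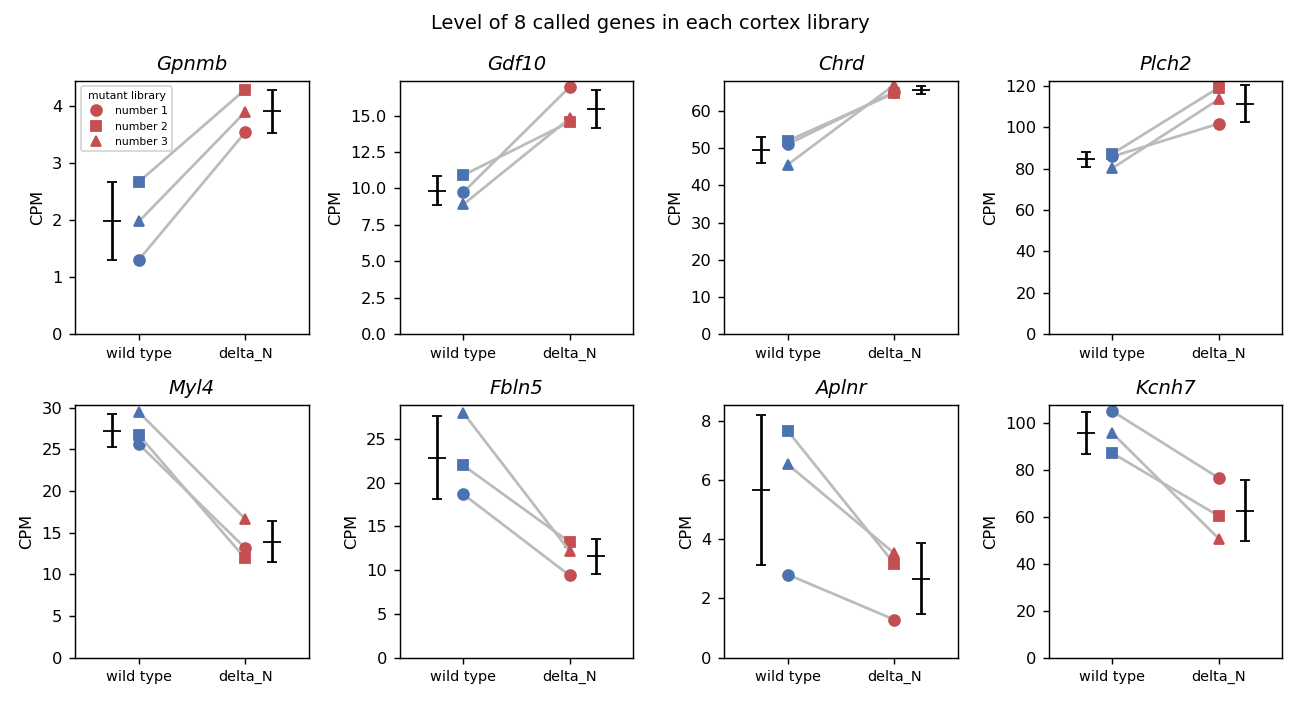
Level in CPM of 4 higher genes (top) and 4 lower genes (bottom) in each library; grey lines join same-numbered libraries, and the black marks give the mean and SD of 3 libraries. All lines run the same way within a gene, and only Aplnr overlaps between groups (1.29 to 3.53 CPM in the mutant, 2.80 to 7.65 CPM in wild type).

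Among the genes that rose, Gpnmb, a transmembrane glycoprotein of activated microglia and macrophages, had the largest change of those above the level limit of the naming rule. It was counted at 1.30, 2.67 and 1.98 CPM in wild type libraries 1, 2 and 3 and at 3.54, 4.30 and 3.90 CPM in the mutant. The groups did not overlap, and the log2 fold change was 1.00 ± 0.18 (SE, edgeR adjusted p = 0.020). Microglial markers as a list had a median of 0.03, with 0 of 29 called and 2 at an unadjusted p under 0.05, against 13.9% of all genes. Gdf10, a secreted ligand of the TGF-beta superfamily, stood at 9.75, 10.9 and 8.91 CPM in wild type and 17.0, 14.6 and 14.8 CPM in the mutant. Every mutant library was above every wild type library, and Gdf10 rose by 0.65 ± 0.09 (edgeR adjusted p = 0.0088). Chrd, which encodes the BMP antagonist chordin, stood at 51.1, 52.0 and 45.6 CPM against 65.2, 64.8 and 67.0 CPM. It rose by 0.41 ± 0.06 (edgeR adjusted p = 0.012), again without overlap. These were the 2 called members among the 51 genes of the BMP and TGF-beta list, whose median was 0.03.

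Plch2, a phospholipase C that cleaves phosphoinositides, stood at 85.8, 87.1 and 80.1 CPM in wild type and at 101.7, 119.1 and 113.5 CPM in the mutant, a rise of 0.40 ± 0.06. C1qtnf4, a secreted protein related to C1q and TNF, stood at 42.0, 42.1 and 55.6 CPM against 57.4, 59.4 and 71.8 CPM, a rise of 0.44 ± 0.06. Its lowest mutant library lay just above its highest wild type library of the n series. Other wild type libraries held 47.9, 64.9 and 42.5 CPM of C1qtnf4 in the plain series and 42.7 and 39.0 CPM in the r series, so the highest lay inside the range of the mutant. Mc4r, the melanocortin receptor that restrains feeding, stood at 2.03, 1.21 and 1.06 CPM against 4.32, 2.06 and 1.95 CPM. Each mutant library of Mc4r exceeded its own pair, yet the groups overlapped, as they did for Car14 and Tfrc. Tfrc, the transferrin receptor of iron uptake, rose from 180, 212 and 253 CPM to 229, 281 and 336 CPM, by 0.39 ± 0.06. Wild type libraries of the plain and r series held 297 to 351 CPM of Tfrc, above all 3 wild type libraries of the n series, and against all 8 wild type libraries without the block its log2 difference was -0.01.

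The other named higher genes rose by 0.39 to 0.76 on the log2 scale. They were Ovgp1, an oviduct glycoprotein, Car14, a membrane carbonic anhydrase, Cabp7, a calcium-binding protein, Matn2, a matrix protein, Gpt, alanine aminotransferase, Col23a1, a transmembrane collagen, and Zfas1, a noncoding RNA antisense to Znfx1. Whether counting used strand is not given in the sources used here, so reads of Zfas1 and Znfx1 may mix. Cabp7 stood at 24.5 to 26.1 CPM in the mutant. Other wild type libraries held 22.8 to 25.8 CPM of it in the plain series and 17.2 and 17.1 CPM in the r series. Matn2 stood at 24.7, 18.0 and 17.4 CPM in the mutant. The plain series held 14.5, 17.8 and 18.8 CPM of Matn2 and the r series 19.1 and 16.9 CPM, partly inside the range of the mutant. Of 37 collagen chains tested, Col23a1 and Col11a2 rose (0.45 and 0.31) and Col3a1 fell by 0.65.

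**Figure D2:**
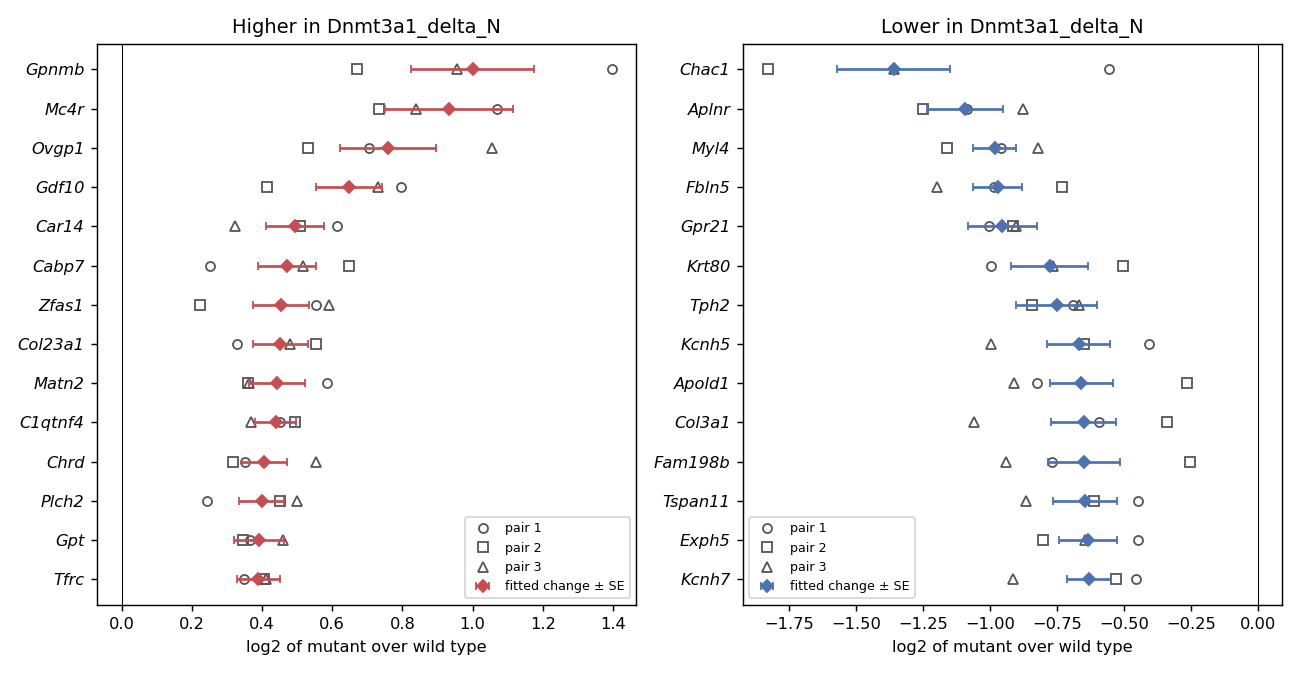
Difference on the log2 scale between mutant and wild type within each same-numbered pair (open symbols) and the fitted change with its SE (filled diamonds) for the 14 named higher and 14 named lower genes. For each gene the open symbols lie on 1 side of 0; the spread between pairs is widest for Gpnmb among the higher and for Chac1 among the lower genes shown.

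Among the genes that fell, Myl4, a myosin essential light chain known from embryonic and atrial muscle, had the smallest p. It stood at 25.6, 26.7 and 29.5 CPM in wild type and 13.2, 11.9 and 16.7 CPM in the mutant. The groups were well apart, and Myl4 fell by 0.98 ± 0.08 (edgeR adjusted p = 0.00013). It remained called without pair 3 (adjusted p = 0.0029) and with sex as a term in place of the pairs (adjusted p = 0.018). Wild type level varied between series, with 16.2, 20 and 17.8 CPM in the plain series, whose lowest library lies within the range of the mutant, and 29.5 and 36.9 CPM in the r series. Fbln5, an elastic fibre protein, stood at 18.7, 22.0 and 28.0 CPM against 9.39, 13.2 and 12.2 CPM, a fall of 0.97 ± 0.09 (edgeR adjusted p = 0.00057). The other wild type cortex libraries held 34.0, 12.1, 11.7, 11.7 and 13.3 CPM of Fbln5, so 3 of 5 lay inside the range of the mutant and a further one just above it. Fbln5 and Kcnh7 also remained called without pair 3 (adjusted p = 0.019 and 0.036), the only other named genes that did.

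Genes of vessel walls were also among the falls. Of 29 mural and meningeal markers 3 fell and 0 rose, with a median of -0.14 over the list against 0.00 over all genes. Tagln, a smooth muscle actin-binding protein, went from 22.8, 24.3 and 23.9 CPM to 14.1, 18.3 and 14.2 CPM, Myh11, smooth muscle myosin, fell by 0.49, and Col3a1, a fibrillar collagen, by 0.65. These falls are relative to the n series. In the 5 other wild type cortex libraries Tagln stood at 28.8, 9.99 and 8.31 CPM (plain series) and 9.78 and 13.5 CPM (r series), so 4 of 5 lay below every mutant library. Myh11 stood at 9.19 to 14.2 CPM and Col3a1 at 7.91 to 18.3 CPM in the same 4 libraries, against 13.4 to 19.2 CPM and 9.38 to 13.9 CPM in the mutant. Of 30 endothelial markers 2 fell. Aplnr, the apelin receptor of growing endothelium, stood at 2.80, 7.65 and 6.52 CPM in wild type and 1.29, 3.18 and 3.53 CPM in the mutant. Although its groups overlapped through wild type library 1, Aplnr was lower in each pair and fell by 1.09 ± 0.14 (edgeR adjusted p = 0.0051). Apold1, an endothelial immediate early gene, stood at 14.7, 14.1 and 19.4 CPM against 8.26, 11.7 and 10.3 CPM, a fall of 0.66 ± 0.12. Here too the n series was high: the other wild type libraries held 22.4, 8.27, 6.02, 5.63 and 5.19 CPM of Apold1, 3 of them below all mutant libraries. Summed CPM of the mural and meningeal list overlapped between groups (1031 to 1408 in wild type, 1089 to 1258 in the mutant), as did the endothelial sum (2373 to 2869 and 2221 to 2793). In bulk tissue fewer cells of a type and less RNA per cell cannot be told apart.

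Of the gene lists, potassium channels held the most genes that fell. Of 67 potassium channel genes, which set the resting potential and firing of neurons, 7 fell and 0 rose, with a median of -0.08. Over all genes 0.542% fell and 0.208% rose, the shares against which this and the other list counts stand. Kcnh7, an ether-a-go-go related channel, stood at 105, 87.2 and 95.8 CPM in wild type and 76.7, 60.5 and 50.8 CPM in the mutant. It was lower in every mutant library and fell by 0.63 ± 0.08 (edgeR adjusted p = 0.0088). Kcnh5, of the same family, fell by 0.67, the silent subunits Kcnv1 and Kcng4 by 0.41 and 0.59, and Kcnma1, the large-conductance calcium-activated channel, by 0.39. The other two were Kcnj6, a G protein-gated channel, and Kcnt2, a sodium-activated one. Kcnv1 stood at 107, 110 and 98.0 CPM against 82.4, 85.2 and 69.5 CPM, without overlap.

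Of 38 glutamate and GABA receptor subunits 3 fell and 0 rose, with a median of -0.11. Grin2b, an NMDA receptor subunit, stood at 22.2, 15.9 and 13.3 CPM in wild type and 14.4, 11.8 and 9.87 CPM in the mutant. Gabrb2, a beta subunit of the GABA-A receptor, stood at 250, 183 and 214 CPM against 195, 162 and 141 CPM. In both genes the groups overlapped, while each pair went down. Falls were 0.50 ± 0.08 and 0.38 ± 0.08 (edgeR adjusted p = 0.016 and 0.043). Of 37 genes in the sodium and calcium channel list 2 fell and 0 rose, among them Cacna1e, an R-type calcium channel, by 0.31. Of 57 vesicle and scaffold genes only Pclo, the active zone protein piccolo, fell, by 0.36, while 50 of the 57 had negative values.

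Medians of these neuronal lists were deepest in pair 3. Synaptic genes had medians of -0.04, -0.07 and -0.20 in pairs 1, 2 and 3, potassium channels of -0.07, -0.07 and -0.22, and sodium and calcium channels of -0.11, -0.03 and -0.25. Pair 3 also held the largest median for the 13 mitochondrially encoded genes (0.03, -0.01 and 0.30) and a median of 0.31 for the 75 cytosolic ribosomal protein genes, against 0.20 and 0.04 in pairs 1 and 2. All 75 ribosomal protein genes had positive values (median 0.18); 0 were called by edgeR, and 60 had an unadjusted p under 0.05, against 13.9% of all genes. Which part these shifts, or RNA quality, had in the neuronal falls was not tested.

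**Figure D3:**
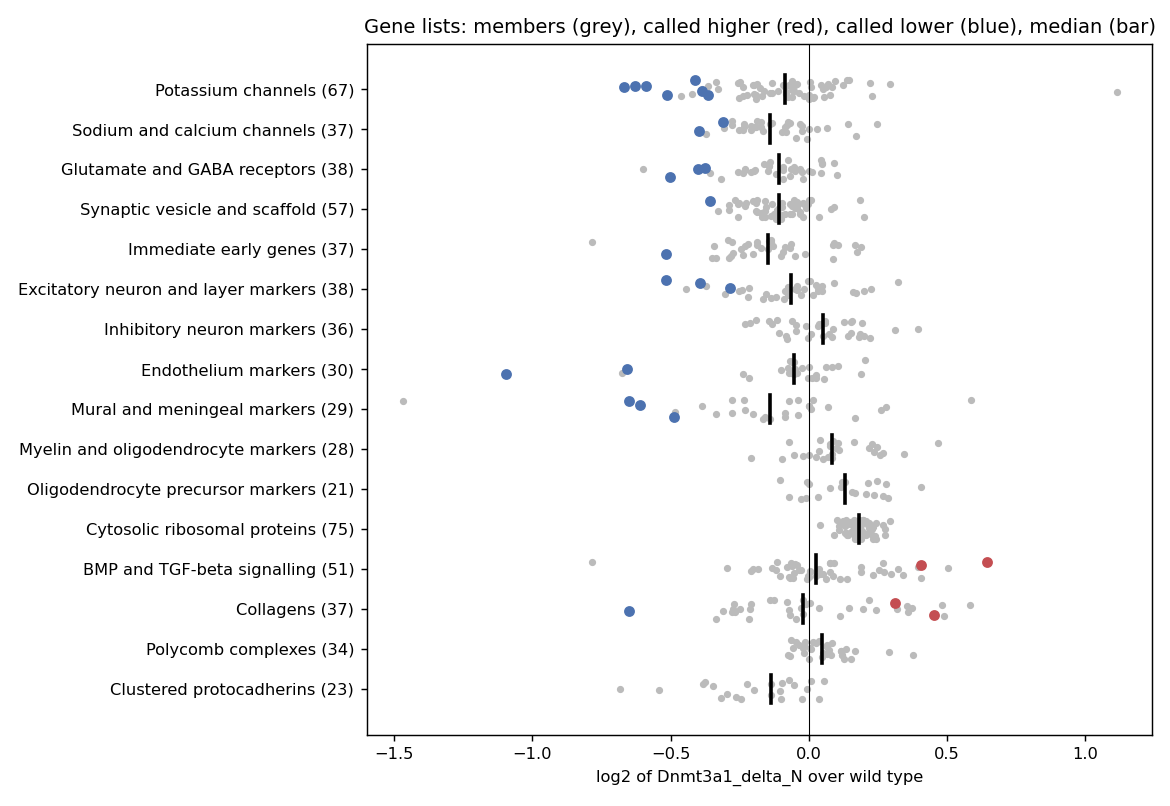
Fitted log2 fold change of each tested member of 16 gene lists, with the number tested in brackets and the black bar at the median. Called members appear on the low side of the channel, receptor and vessel lists, on the high side of the BMP list and on both sides of the collagen list. Ribosomal protein genes lie to the right of 0 with 0 called.

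A few transcription factors and layer markers also fell. Nr4a2, an orphan nuclear receptor that marks deep-layer and claustrum neurons and responds to activity, stood at 36.1, 40.7 and 39.3 CPM in wild type and 25.9, 27.9 and 27.4 CPM in the mutant. The groups did not overlap, and the fall was 0.52 ± 0.06 (edgeR adjusted p = 0.0051). Of the other wild type libraries, at 27.2 to 42.5 CPM, the lowest lay inside the range of the mutant. Nr4a2 was the only one of 37 immediate early genes to pass. Their list median was -0.15, with pair medians of -0.32, 0.08 and -0.24. Of 38 excitatory and layer markers 3 fell, Nr4a2, Plcxd2 (0.40) and the calcium buffer Calb1 (0.29), and 0 rose. Of 36 inhibitory neuron markers 0 were called by edgeR (6 higher and 2 lower at an unadjusted p under 0.05), with a median of 0.05. Foxp1, a forkhead factor of cortical and striatal neurons, fell by 0.33, the only call among 23 striatal markers. Frzb, a secreted Wnt antagonist, fell from 20.3, 22.1 and 24.0 CPM to 16.2, 16.7 and 17.2 CPM and was the only call among 54 Wnt genes.

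The largest fall by size belonged to Chac1, a glutathione-degrading enzyme induced by the integrated stress response. It stood at 2.61, 7.81 and 4.91 CPM in wild type and 1.75, 2.15 and 1.88 CPM in the mutant, a fall of 1.36 ± 0.21 (edgeR adjusted p = 0.019). Its wild type libraries were spread widely and its mutant libraries were close to each other. Gpr21, an orphan receptor, stood at 6.39, 5.10 and 6.16 CPM against 3.15, 2.68 and 3.26 CPM, and Tph2, the neuronal enzyme of serotonin synthesis, at 3.25, 3.86 and 4.69 CPM against 1.99, 2.12 and 2.93 CPM. Both were without overlap, with falls of 0.95 and 0.75. In the plain wild type series Tph2 stood at 2.496 to 2.67 CPM, inside the range of the mutant. Krt80, a keratin, fell by 0.78, and Fam198b, Tspan11 and Exph5 by 0.63 to 0.65. Krt80 stood at 3.00, 2.41 and 3.08 CPM in the mutant. Its other wild type libraries held 2.63, 3.06 and 3.15 CPM in the plain series and 5.11 and 4.15 CPM in the r series.

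Markers of the choroid plexus, the tissue of the ventricles that makes cerebrospinal fluid, varied widely between libraries. Ttr, its most abundant transcript, stood at 71.5, 378 and 27.2 CPM in wild type and 905, 661 and 78.1 CPM in the mutant, and the 29 markers summed to 529 to 1076 CPM and 597 to 1781 CPM. All 3 mutant libraries held more Ttr than their pairs, and library 3 of each group held the least. Only Rarres2 among the 29 was called, and it fell by 0.43, against a list median of 0.60. Wild type cortex libraries outside the n series held 6.99 to 9.76 CPM of Rarres2, against 7.67 to 9.77 CPM in the mutant. With the mean level of these markers as a covariate beside the replicate block, 2 higher and 4 lower genes were called, in a fit with 1 residual degree of freedom. Myelin and oligodendrocyte markers summed to 19349 to 20253 CPM in wild type and 21054 to 22687 CPM in the mutant without overlap; 23 of 28 were positive, 8 higher and 1 lower had an unadjusted p under 0.05, and 0 were called by edgeR. Over all genes 13.9% had such an unadjusted p. Pair medians of the myelin and oligodendrocyte list were 0.09, 0.20 and -0.01. What part these markers had in the other changes was not tested beyond that covariate.

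**Figure D4:**
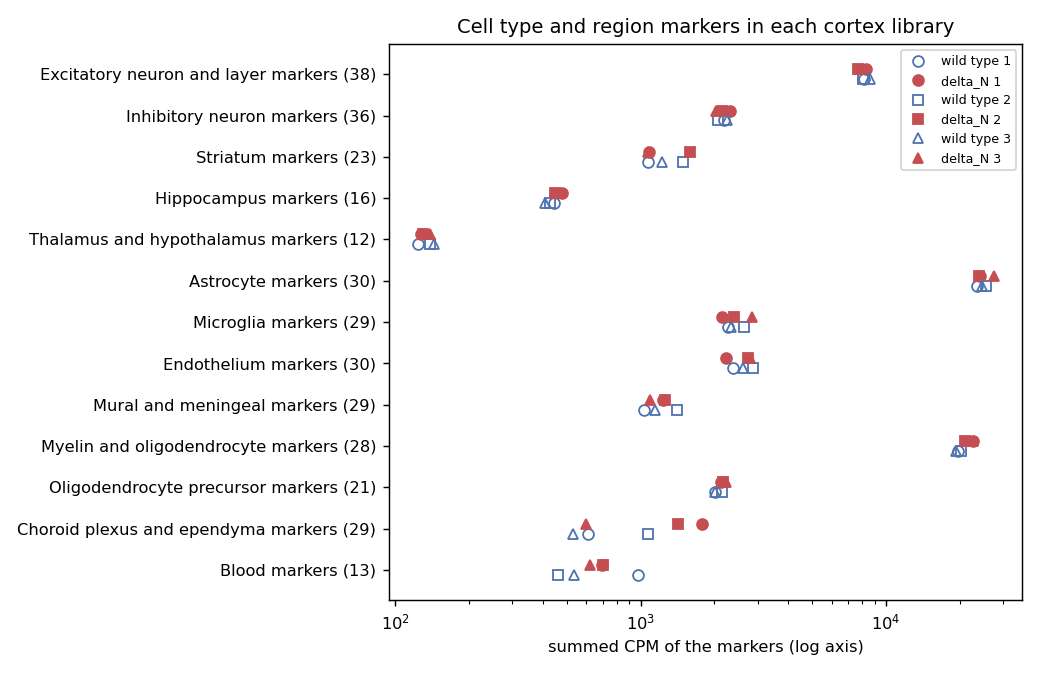
Summed level of each marker list in the 3 wild type (blue, open) and 3 mutant (red, filled) libraries on a log axis in CPM. The lists mostly overlap between groups; the choroid plexus sum runs from 529 to 1781 CPM, and myelin markers lie higher in all 3 mutant libraries.

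Genes of DNA methylation and Polycomb were examined as the systems the N-terminal region is linked to. Of 19 genes of the methylation machinery and of 34 Polycomb genes 0 were called by edgeR, with medians of -0.02 and 0.05 and 3 genes of each list at an unadjusted p under 0.05. Over all genes 13.9% had such a p, the share for this and the next lists. With 0.749% of all genes called, 0 calls in lists of this size says little about their members. Ezh2, the H3K27 methyltransferase, stood at 8.11, 9.14 and 7.70 CPM against 9.97, 9.68 and 11 CPM, a difference of 0.29 ± 0.10 that did not pass (edgeR adjusted p = 0.22). Of 44 developmental transcription factors tested 0 were called (7 higher and 2 lower at an unadjusted p under 0.05), with a median of 0.09. Nkx6-2, a factor of oligodendrocytes, had the smallest p, at 6.27, 6.44 and 5.68 CPM against 9.42, 8.30 and 7.73 CPM (0.47 ± 0.11, edgeR adjusted p = 0.061). None of the 38 HOX genes in the files passed the filter on low counts, and their counts summed to between 1 and 13 per library. Clustered protocadherins, adhesion genes of neurons whose copies share sequence, had a median of -0.14 over 23 genes with 0 called (6 lower at an unadjusted p under 0.05), and pair medians of -0.11, 0.04 and -0.44.

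The Dnmt3a1-/- cortex, which lacks the long isoform, was set beside the N-terminal deletion to ask how far the changes are shared. The 2 comparisons use separate wild type libraries. In Dnmt3a1-/- cortex 31% of 15933 genes were called with the replicate block, 15.1% higher and 16% lower. Of the genes higher in Dnmt3a1_delta_N, 26 of the 32 tested there were also called higher (81.3% of that list and 1.10% of the Dnmt3a1-/- list) and 1 was called lower. Of the 86 lower genes, 71 were also called lower (82.6% and 2.80% of the lists) and 2 were called higher. Among all 2362 genes called higher in Dnmt3a1-/-, 80.8% had a positive value in Dnmt3a1_delta_N against 50.8% of all genes, with medians of 0.36 in Dnmt3a1-/- and 0.09 in Dnmt3a1_delta_N. For the 2535 lower genes 84.2% were negative and the medians were -0.30 and -0.10. In pairs 1, 2 and 3 of Dnmt3a1_delta_N the medians were 0.12, 0.02 and 0.15 for the higher list. For the lower list they were -0.11, -0.05 and -0.17. Across 15424 genes the log2 fold changes correlated at r = 0.44 (rho = 0.45), a description, since genes are not independent and share their libraries. Choroid plexus markers had a positive median in both mutants (0.60 and 0.78). The median was also positive in Dnmt3a1-/- hippocampus (1.16) and in Dnmt3a2-/- cortex (1.32).

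The size of the change differed from that in Dnmt3a1-/- for a minority of the called genes. Of the 33 higher genes 7 differed, and of the 86 lower genes 15, in a test that called 2.91% of 16456 genes. Gpnmb reached 7.51, 10.2 and 8.49 CPM in Dnmt3a1-/- against 2.14, 2.05 and 2.35 CPM in its wild types, a rise of 2.02 against 1.00 in Dnmt3a1_delta_N, and the difference of -1.01 ± 0.24 passed (edgeR interaction contrast, adjusted p = 0.034). Gdf10 reached 21.8, 22.4 and 23.1 CPM against 9.70, 10.6 and 9.23 CPM, with a difference of -0.53 ± 0.13 (adjusted p = 0.037). Aplnr went down to 2.11, 1.10 and 1.68 CPM in Dnmt3a1-/-, and its difference of 0.87 ± 0.23 did not pass (edgeR adjusted p = 0.054). In 4 higher and 10 lower of those that differed the change had the same sign and was smaller in Dnmt3a1_delta_N, among them Plch2, Kcng4, Kcnv1, Gabrb2, Pclo, Frzb and Apln. In 0 genes was it larger with the same sign.

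In the remaining 3 higher and 5 lower genes the signs were opposite. Apold1 stood at 23.0, 13.5 and 8.76 CPM in Dnmt3a1-/- and 22.4, 8.27 and 6.02 CPM in its wild types, a rise of 0.40 (edgeR adjusted p = 0.019) with overlap between the groups, and the difference from Dnmt3a1_delta_N was -1.05 ± 0.22 (edgeR adjusted p = 0.035). Krt80 differed by -0.997 ± 0.22 (edgeR adjusted p = 0.025) and Acta1, an alpha actin of skeletal muscle, by -0.87, while their values in Dnmt3a1-/- itself, 0.22 and 0.31, did not pass. Wild type Krt80 stood at 3.45 to 6.05 CPM in the n series and at 2.63 to 3.15 CPM in the plain series. Pisd-ps1 and Pisd-ps2 are pseudogene copies whose reads may be split between them, so their values are uncertain. The higher ones were Sox21, a factor of progenitors (-0.21 in Dnmt3a1-/-), Gpt (-0.03), neither of which passed there, and the predicted gene Gm23935, which did (-0.43). Acta1, Sox21, Gm23935 and the pseudogenes were named after their values were seen. Tagln, Myh11 and Fbln5 had log2 values of 0.10 ± 0.62, -0.08 ± 0.49 and -0.38 ± 0.55 in Dnmt3a1-/-, and their differences did not pass (edgeR adjusted p = 0.63, 0.76 and 0.67).

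**Figure D5:**
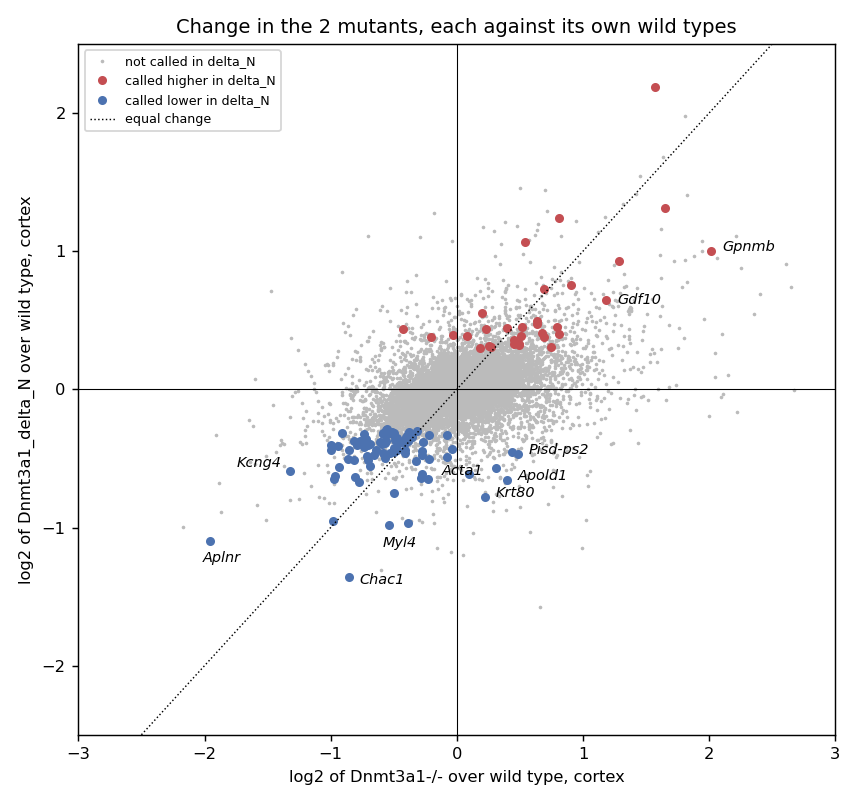
Log2 fold change in Dnmt3a1_delta_N cortex (y axis) against that in Dnmt3a1-/- cortex (x axis) for 15424 genes tested in both, with 1 gene outside the axes. Most genes called in Dnmt3a1_delta_N lie at the lower left and upper right; Apold1, Krt80, Acta1 and Pisd-ps2 lie at the lower right.

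In Dnmt3a1-/- hippocampus, tested without a block, 2.52% of 15727 genes were called, 1.69% higher and 0.827% lower. Of the genes higher in Dnmt3a1_delta_N cortex 6 of 29 were called higher there (20.7%), including Gpnmb and Ovgp1, and 26 had the same sign. Of the lower genes 7 of 84 were called lower (8.33%), including Aplnr, Kcng4 and Nr4a2, 71 had the same sign, and 0 were called the opposite way in either direction. Dnmt3a2-/- cortex, which lacks the short isoform, gave 1 called gene of 15929 (0.00628%) with 2 libraries a group. That gene, Rps4l, was not among those called in Dnmt3a1_delta_N. Medians in Dnmt3a2-/- of the genes called in Dnmt3a1_delta_N were 0.11 for the higher and -0.08 for the lower genes. The sign was the same for 22 of 32 higher and 64 of 86 lower genes. Across 15659 genes the log2 fold changes of these 2 mutants correlated at r = 0.18. The test of the difference between Dnmt3a1_delta_N and Dnmt3a2-/- called 0 of 16449 genes by edgeR, with 668 at an unadjusted p under 0.05, so a difference between these mutants was not detectable gene by gene at this number of libraries. Rps4l had the lowest adjusted p (-1.42 ± 0.20, edgeR adjusted p = 0.06). Of positive differences that of Tfrc was 0.48 ± 0.12 (edgeR adjusted p = 0.61), and the predicted gene Gm15645, outside the naming rule, had a lower adjusted p of 0.44.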

How the data were processed

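Gene counts were deposited by the authors as 1 file per library, whole-number counts not normalized. Per the submitters' processing notes, STAR 2.5.4a, HTSeq 0.11.0 and build mm9 were used; the annotation release and strand setting are not given in the sources used here. Rows that name no gene (22.1% to 24.1% of reads in the 6 libraries) were left out. Of 37310 gene IDs 32620 matched a symbol. After filterByExpr and TMM scaling, counts were fitted with edgeR 4.0.16 (R 4.3.3, robust quasi-likelihood F-test) with the replicate number as a block, which leaves 2 residual degrees of freedom. P-values were adjusted by Benjamini-Hochberg over all genes tested. Each SE was derived from the log2 fold change and its F statistic. The block followed the rule set for this comparison, and the labels do not state a pairing. Deviations from group means correlated at 0.373, 0.24 and 0.419 between same-numbered libraries and at -0.321 to -0.06 between others. These values do not test the pairing. They come from the same 6 libraries, deviations within a group cancel, and sex differed between pairs. Correlations between same-numbered libraries were 0.237, 0.376 and 0.184 in Dnmt3a1-/- cortex, fitted in the same way. Differences between mutants were interaction contrasts. Scripts were tested on simulated data.

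The members and the 40 gene lists were chosen with earlier results of these data known. Named genes were Dnmt3a, up to 14 called per direction by largest change (mean log2 CPM of at least 1, same sign in 3 pairs, no predicted name), up to 4 called per list or, where none was called, 3 with the smallest p, and those leading each difference between mutants. Depth limits low genes most: 1 CPM is about 26 to 36 counts per library. Alternatives were other scalings, filters, DESeq2 1.42.0, no block, sex or choroid plexus terms, other controls and leaving out libraries. Bisulfite, ChIP and nuclei samples were not used here, and some called genes are not reported here.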

Additional observations from a re-analysis of the deposited data

Results flagged for a closer look

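The change differed between Dnmt3a1_delta_N and Dnmt3a1-/- cortex for 479 of 16456 genes by the edgeR interaction contrast, 239 with a more positive and 240 with a more negative value in Dnmt3a1_delta_N. Among genes called in Dnmt3a1_delta_N it differed for 7 higher and 15 lower ones. The genes leading this test changed in Dnmt3a1-/- and did not pass in Dnmt3a1_delta_N. Angptl4, a secreted inhibitor of lipoprotein lipase, differed by -2.39 (2.22 in Dnmt3a1-/-, -0.17 in Dnmt3a1_delta_N), Depp1, a FOXO-induced gene, by -2.13, Acer2, a ceramidase, by -1.14 and Mrpl41, a mitochondrial ribosomal protein, by -0.89. Dnmt3a itself differed by 0.85, C1ql3, a synaptic C1q-like protein, by 0.76, Cyp51, an enzyme of cholesterol synthesis, by 0.65 and Kcnj10, the astrocytic potassium channel Kir4.1, by 0.62.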

How the results depend on the processing

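Counts of called genes moved with the pairing and with pair 3. With no replicate block 0 higher and 0 lower genes were called by edgeR, and 12 and 31 by DESeq2. With sex as a term and no block there were 0 and 1, with the choroid plexus score and no block 0 and 0, with that score beside the block 2 and 4, and against all 8 wild type cortex libraries 0 and 0. Leaving out 1 pair gave 2 to 212 higher and 6 to 280 lower genes (2 and 6 without pair 3, 89 and 179 without pair 1, 212 and 280 without pair 2); leaving out 1 library without the block gave 0 to 1 in each direction. With no filter on low counts 232 and 381 were called, and at an adjusted p under 0.1 115 and 213. Other scalings, a stricter filter and DESeq2 with the block stayed within 1.5 times of 33 and 86. The genes were not all the same. DESeq2 with the block called 37 and 106, of which 20 and 65 were among the 33 and 86. Total count scaling kept 26 and 77 of them, the stricter filter 32 and 82, and RLE and upper quartile scaling all. Of 46 called named genes, 46 kept their call under RLE and upper quartile scaling, 41 under total counts, 33 with DESeq2 and the block, 3 without pair 3 and 0 with no block. Among named genes only Tfrc reversed, to -0.013, against all 8 wild type libraries. The difference from Dnmt3a1-/- called 17 genes with no replicate block and 227 to 637 with 1 pair left out (227 without pair 2), and that from Dnmt3a2-/- 0 to 1. Dnmt3a1-/- cortex gave 2845 calls with no replicate block against 4941. The cause of these moves was not tested. Of the 26 and 71 calls shared with Dnmt3a1-/-, 22 and 66 were shared when its fit left out the block, and the medians of Dnmt3a1-/- genes in Dnmt3a1_delta_N kept their sign in each alternative run.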

Other observations

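Calls outside the naming rule, chosen after their values were seen, add to 3 of the groups. Apln, the ligand of the apelin receptor, stood at 54.1, 71.1 and 68.2 CPM in wild type and 42.0, 52.3 and 61.7 CPM in the mutant, and Cd93, an endothelial receptor, at 31.3, 51.8 and 39.3 CPM against 23.0, 34.0 and 32.8 CPM. Both overlapped between groups and fell by 0.32 and 0.44 on the log2 scale. Asns, asparagine synthetase, a target of the integrated stress response like Chac1, stood at 48.1, 56.7 and 51.1 CPM against 41.7, 40.1 and 34.3 CPM, without overlap. Mef2c, a transcription factor of excitatory neurons, stood at 396, 321 and 379 CPM against 329, 254 and 235 CPM. It was lower in every pair, with overlap between the groups.

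4 called genes below the level limit rose by more than any gene of the same direction named in the report. Dmrt2, a transcription factor, was counted at 0.69, 0.59 and 0.84 CPM in wild type and 1.99, 1.65 and 1.35 CPM in the mutant. Stpg1 rose by 1.31 and Chdh, choline dehydrogenase, by 1.07, while the predicted gene Gm15645 stood at 0.083, 0.25 and 0.26 CPM against 1.21, 0.71 and 0.75 CPM.

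Lists with 0 genes called by edgeR are given with their median log2 difference and their members at an unadjusted p under 0.05. Over all 15881 genes tested 1033 higher and 1178 lower had such a p, together 13.9%. Counts near that share say little about a list. Axon guidance had 68 tested genes, a median of -0.06, and 2 higher and 21 lower members. Cell division (38 tested, median -0.09) had 0 higher and 5 lower, interferon response (45, -0.09) 0 and 7, and cholesterol synthesis (27, -0.08) 1 and 2. Imprinted genes (42, -0.04) had 5 higher and 8 lower and neuropeptides (28, -0.03) 3 and 4. Medians of complement, lipid and fasting, glucocorticoid and stress induced, germline and nuclear oxidative phosphorylation genes lay between 0.00 and 0.02. Oligodendrocyte precursor markers (21, 0.13) had 9 higher and 0 lower members, astrocyte markers (30, 0.05) 4 and 1, thalamus and hypothalamus markers (12, -0.01) 1 and 2, and blood markers (13, 0.19) 2 and 0. Chac1, which fell, was the only call of 22 heat shock and unfolded protein genes. That list had a median of 0.13, with 5 higher and 2 lower members at an unadjusted p under 0.05. Calb1, which also fell, was the only call of 16 hippocampus markers (median 0.05, 5 higher and 2 lower at such a p). In Dnmt3a1-/- cortex 21 of 32 glucocorticoid and stress induced genes and 17 of 44 interferon genes were called higher, against 15.1% of all genes there. Of 27 cholesterol genes 19 were called lower, against 16% of all genes.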
